A study of Mus musculus with 17 samples.

Results

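The Ly6 antigen family studied here comprised 7 listed genes, Ly6a, Ly6c1, Ly6c2, Ly6d, Ly6e, Ly6g and Ly6i, followed across sorted mouse monocytes and their BM precursors. Members were chosen by gene name, and each was measured by the probe set annotated to that single symbol, the brightest where a gene had more than 1. In this way 6 of the 7 members were measured, each by 1 probe set, out of 22180 genes in all. Ly6a, which encodes Sca-1, had no probe set in the array annotation under either 1 or several symbols and was not analysed here. No member was lost because its probe set carried several symbols.

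Ly6 proteins are small surface proteins with a 3-fingered, disulphide-bonded fold, most of them held in the outer membrane leaflet by a glycosylphosphatidylinositol (GPI) anchor. Several serve as lineage antigens in the mouse, because blood cells gain and lose them as they mature. Ly6C separates classical from nonclassical monocytes, Ly6G marks neutrophils, and Ly6D appears on lymphoid progenitors that enter the B-cell lineage.

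RNA was hybridized to Affymetrix MoGene 2.0 arrays, 17 in all. DT-Ly6C+ monocytes (4 arrays) and PBS-Ly6C+ monocytes (4 arrays) were spleen lineage-negative CD11b+CD115highLy6Chigh cells of CD11c.DTR mice taken 48 h after DT or PBS, in which the CD11c promoter drives the toxin receptor, so that macrophages can be lost along with DCs. Ly6Cneg monocytes (3 arrays) came from the spleen, labelled as PBS-injected and taken at 48 h, while a figure legend of the paper names C57BL/6 mice. BM cMoPs (3 arrays), the committed monocyte precursors of untreated C57BL/6 mice, were sorted as CD117+CD115+CD135negLy6C+CD11bneg cells. G-CSF-Ly6C+ monocytes (3 arrays) were spleen Ly6Chigh cells labelled as induced by Flt3L and G-CSF, for which the methods give subcutaneous G-CSF in wild-type mice. All groups were labelled C57BL/6 and 8 to 12 weeks old, from individual or pooled mice. Ly6C itself was a sort criterion of every group, and anti-Ly-6G was part of the dump gate in some experiments, so levels of Ly6c1, Ly6c2 and Ly6g partly restate the sort. Array names in the labels fall into a pair of series. Series A holds the cMoP and Ly6Cneg arrays, DT A1 and PBS A1 (8 arrays), and series B holds DT B1 to B3, PBS B1 to B3 and G-CSF B1 to B3 (9 arrays). Groups were compared only within a series.

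The PBS-Ly6C+ arrays did not form 1 group. PBS A1 correlated with the DT arrays at r = 0.974 to 0.980 across genes and with PBS B1 to B3 at 0.919 to 0.923, while PBS B1 to B3 correlated with each other at 0.983 to 0.985. On PBS B1 to B3 the log2 level of Kit, the stem cell factor receptor of progenitors, was 10.85 to 11.05, above the 9.39 to 9.92 of the cMoPs, against 5.82 on PBS A1 and 4.79 to 6.24 on the DT and G-CSF arrays. The Ly6Cneg arrays gave 8.20, 10.28 and 8.95 for Kit, 1 of them above every cMoP array. Csf1r, which encodes CD115, was at 9.47 to 9.52 on PBS B1 to B3 at 9.82 to 10.85 on the Ly6Cneg arrays and at 11.28 to 11.70 on PBS A1 and the DT and G-CSF arrays. Cd3e was at 7.12 to 7.56 on PBS B1 to B3 and at or below 5.56 elsewhere. Of the other sort checks, Itgam (CD11b) was at 6.66 to 6.88 in cMoPs and at 9.79 or higher in every monocyte array and Klrb1c stayed at 4.20 to 6.55. The mean levels of the marker lists followed the same split. Stem and progenitor markers averaged 9.24 to 9.33 on PBS B1 to B3 and 5.97 on PBS A1, neutrophil markers 10.92 to 10.98 and 7.99, T and NK cell markers 6.51 to 6.52 and 5.11, and monocyte markers 9.32 to 9.42 and 11.15. The differences of DT A1 from PBS A1 are therefore given beside those of DT from PBS in series B, while no G-CSF array of series A was there to set against PBS A1. In bulk RNA, fewer cells of a type and less RNA per cell cannot be told apart, and the part that other cells played in the results below was not tested.

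**Figure D1:**
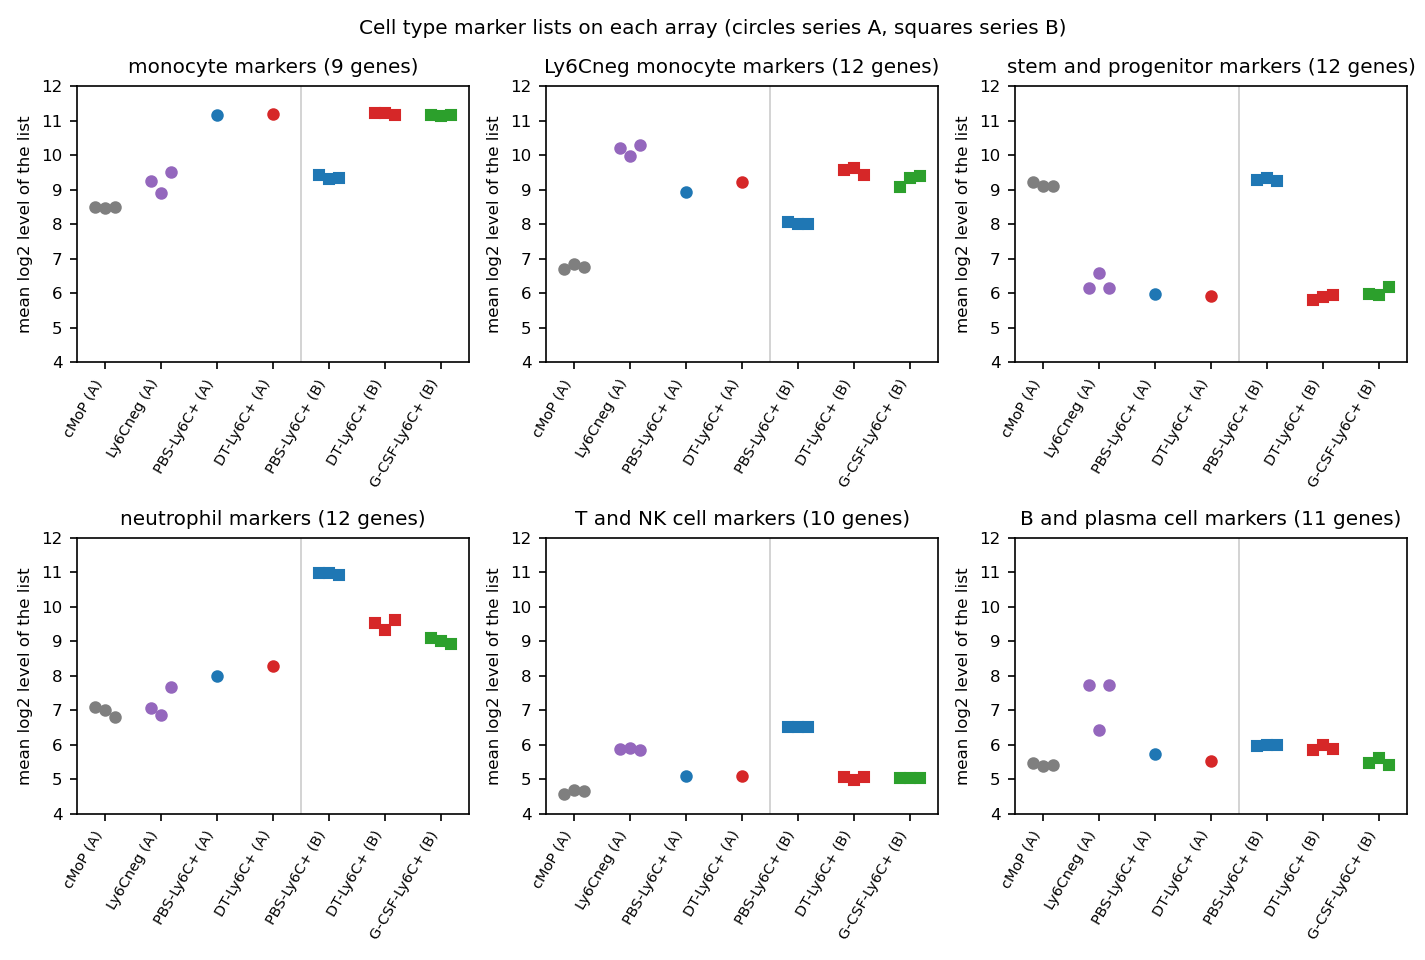
Mean log2 level of 6 marker lists on each array, by group and array series (circles series A, squares series B, 1 point for each array). PBS B1 to B3 stand apart from PBS A1 in each list drawn except B and plasma cell markers, with stem and progenitor markers at 9.24 to 9.33 against 5.97.

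The members are neighbours on chromosome 15. In the RefSeq order of protein-coding genes (GRCm38.p6), Ly6e, Ly6i, Ly6a, Ly6c1, Ly6c2, Ly6a2, Ly6g, Ly6g2 and Ly6f follow each other without another gene between them, and Ly6d lies apart, beyond Ly6m, Cyp11b2, Cyp11b1, the Gml genes, Ly6k and Ly6g6g. Ly6a2, annotated on the array and not a listed member, was added after its values were seen because they resembled those of Ly6c2. The promoters of Ly6c1, Ly6c2, Ly6a2 and Ly6g are shown because these genes adjoin each other and can be aligned upstream of their starts. A further reason was that between DT and PBS arrays of series B, Ly6g differed in the opposite direction to the other 3. RefSeq promoters were given for 3 of the 7 members (Ly6c1, Ly6c2 and Ly6g). The 250 bases before the most upstream start listed for each gene are printed 5' to 3' from build GRCm38.p6, at chr15:75048838-75049087 (Ly6c1, minus strand), chr15:75111972-75112221 (Ly6c2, minus strand), chr15:75135129-75135378 (Ly6a2, minus strand) and chr15:75155011-75155260 (Ly6g, plus strand). Capitals mark matches, on either strand, to TATAAA (the letters of a TATA box), to CCAAT (the box named by these letters) and to AGGAAGT (letters of an ETS site). The motifs were picked after the sequences had been seen, and no match overlaps another.
Ly6c1: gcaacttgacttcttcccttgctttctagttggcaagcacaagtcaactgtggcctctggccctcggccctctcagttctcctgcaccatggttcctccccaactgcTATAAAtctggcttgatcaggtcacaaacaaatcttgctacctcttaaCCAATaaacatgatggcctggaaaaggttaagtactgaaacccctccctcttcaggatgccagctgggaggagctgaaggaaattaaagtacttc
Ly6c2: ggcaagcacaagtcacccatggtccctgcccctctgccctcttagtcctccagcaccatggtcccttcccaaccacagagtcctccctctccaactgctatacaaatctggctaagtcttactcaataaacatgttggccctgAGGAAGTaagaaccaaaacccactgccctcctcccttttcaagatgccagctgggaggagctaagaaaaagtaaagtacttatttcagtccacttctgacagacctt
Ly6a2: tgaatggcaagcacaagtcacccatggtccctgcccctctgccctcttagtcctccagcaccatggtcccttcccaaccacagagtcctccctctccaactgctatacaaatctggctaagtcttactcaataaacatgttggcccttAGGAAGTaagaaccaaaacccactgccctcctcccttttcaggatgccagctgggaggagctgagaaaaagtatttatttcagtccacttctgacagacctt
Ly6g: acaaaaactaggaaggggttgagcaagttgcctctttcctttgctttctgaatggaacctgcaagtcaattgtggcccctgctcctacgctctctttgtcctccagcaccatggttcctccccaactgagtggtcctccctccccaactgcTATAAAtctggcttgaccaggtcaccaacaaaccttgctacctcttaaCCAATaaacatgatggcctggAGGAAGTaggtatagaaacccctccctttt

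Ly6c2 and Ly6a2 were identical at 241 of 245 aligned bases (98.4%). Ly6c1 was closest to Ly6g, at 172 of 206 aligned bases (83.5%), and shared 164 of 216 (75.9%) with Ly6c2. Ly6c2 and Ly6g shared 135 of 173 (78.0%). TATAAA and CCAAT were found in Ly6c1 and Ly6g and not in Ly6c2 or Ly6a2. AGGAAGT was found in Ly6c2, Ly6a2 and Ly6g and not in the window of Ly6c1. Of 32851 RefSeq promoters cut to the same length, 12.4% held TATAAA, 33.8% CCAAT and 7.69% AGGAAGT. TTCNNNGAA, the letters of a gamma-activated site, was searched as well and had no match in these 4 windows, against 7.02% of all. A match describes letters only. Probe sequences were not used here, so whether the probe sets of Ly6c1, Ly6c2 and Ly6a2 also take up RNA of the near-identical neighbours was not tested, and their values are uncertain to that extent.

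Ly6c2, the Ly6C gene of myeloid cells, was high in every group sorted as Ly6C+ and low only in Ly6Cneg monocytes. Its log2 level was 13.03, 12.99 and 12.98 in cMoPs. It was 13.03 on DT A1 and 13.01, 12.98 and 12.93 on DT B1 to B3, and 12.89, 12.85 and 12.91 on the G-CSF arrays. PBS-Ly6C+ monocytes gave 12.95 on PBS A1 and 11.38, 11.33 and 11.34 on PBS B1 to B3, and the Ly6Cneg arrays gave 7.97, 7.24 and 9.11. The 3 PBS arrays of series B were thus below every other Ly6C+ array, without overlap, while PBS A1 lay within the range of the cMoP, DT and G-CSF arrays. In the order of means, cMoPs overlapped DT B1 to B3, which overlapped PBS A1, and the G-CSF arrays, PBS B1 to B3 and the Ly6Cneg arrays followed.

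Ly6c1, the other Ly6C gene, known from endothelial cells and T cells, was dim. It was below the median of the array on 16 of 17 arrays and exceeded it only on G-CSF B1. The cMoP arrays gave log2 levels of 4.29, 5.14 and 4.84, DT A1 gave 4.87, and DT B1 to B3 gave 4.97, 4.83 and 5.03. The G-CSF arrays were spread widest, at 5.59, 4.17 and 4.61. PBS A1 was at 3.93, PBS B1 to B3 at 3.97, 3.78 and 4.27, and Ly6Cneg at 4.31, 3.51 and 3.67. The lower 3 groups in the order, PBS B, PBS A1 and Ly6Cneg, overlapped each other, as did the upper 4. The lowest G-CSF array reached into the PBS range, and Ly6Cneg A2 (4.31) exceeded cMoP A1 (4.29).

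Ly6g, the neutrophil antigen gene, differed both between the array series and between the groups of series B. All 8 arrays of series A lay below the array median, at 4.22, 4.14 and 4.01 in cMoPs, 3.78 on DT A1, 3.56 on PBS A1 and 4.41, 4.79 and 3.59 in Ly6Cneg monocytes. In series B it was 10.78, 10.32 and 10.99 on the PBS arrays, 6.60, 6.70 and 6.71 on the DT arrays and 5.69, 5.76 and 5.80 on the G-CSF arrays. No array of series B overlapped any of series A, and the 3 groups of series B did not overlap each other. In series B the mean of the neutrophil marker list moved with it. The list averaged 10.92 to 10.98 on PBS B1 to B3, 9.32 to 9.61 on DT and 8.93 to 9.09 on G-CSF arrays. In series A it averaged 6.81 to 8.27, highest on DT A1 (8.27) and PBS A1 (7.99), where Ly6g was at 3.78 and 3.56. The part of neutrophil RNA in the levels of Ly6g was not tested.

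Ly6i, a little-studied member next to Ly6a, separated Ly6C+ spleen monocytes from the rest. Its log2 level was 5.95, 5.03 and 6.33 in cMoPs and 6.52, 6.26 and 6.69 in Ly6Cneg monocytes. DT A1 gave 8.63 and DT B1 to B3 gave 8.77, 8.94 and 8.38. PBS A1 was at 7.58, PBS B1 to B3 at 7.68, 7.86 and 7.26, and the G-CSF arrays at 7.30, 7.50 and 8.29. All 4 DT arrays exceeded every PBS and G-CSF array. For this gene PBS A1 lay within the range of PBS B1 to B3. Ly6Cneg monocytes and cMoPs overlapped, as did the G-CSF and PBS arrays.

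Ly6e, broadly expressed and interferon-inducible, varied least. It lay between 12.23 and 13.01 on all 17 arrays. DT A1 was at 13.01, DT B1 to B3 at 12.88, 12.95 and 12.92, PBS A1 at 12.90, and the G-CSF arrays at 12.75, 12.82 and 12.79. The cMoP arrays gave 12.68, 12.59 and 12.52, the Ly6Cneg arrays 12.57, 12.57 and 12.62, and PBS B1 to B3 12.52, 12.23 and 12.53. PBS B1 to B3 had the lowest mean and overlapped the cMoP arrays, PBS A1 lay among the DT arrays, and cMoPs could not be separated from Ly6Cneg monocytes.

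Ly6d was the member that was highest in Ly6Cneg monocytes, where it also varied most, at 9.31, 7.35 and 10.20. In cMoPs it was 6.00, 6.16 and 6.07. DT A1 gave 6.47, DT B1 to B3 gave 6.07, 6.52 and 6.59, and the G-CSF arrays gave 6.37, 6.26 and 6.21. PBS A1 was at 6.75 and PBS B1 to B3 at 7.94, 6.70 and 6.63. B1 stood above the other PBS arrays and overlapped the lowest Ly6Cneg array. The B and plasma cell list averaged 7.73, 6.44 and 7.73 on the Ly6Cneg arrays in the same order, 5.39 to 5.48 in cMoPs and at most 6.01 on all other arrays, and on PBS B1 it was 5.96, against 6.00 and 6.01 on PBS B2 and B3.

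**Figure D2:**
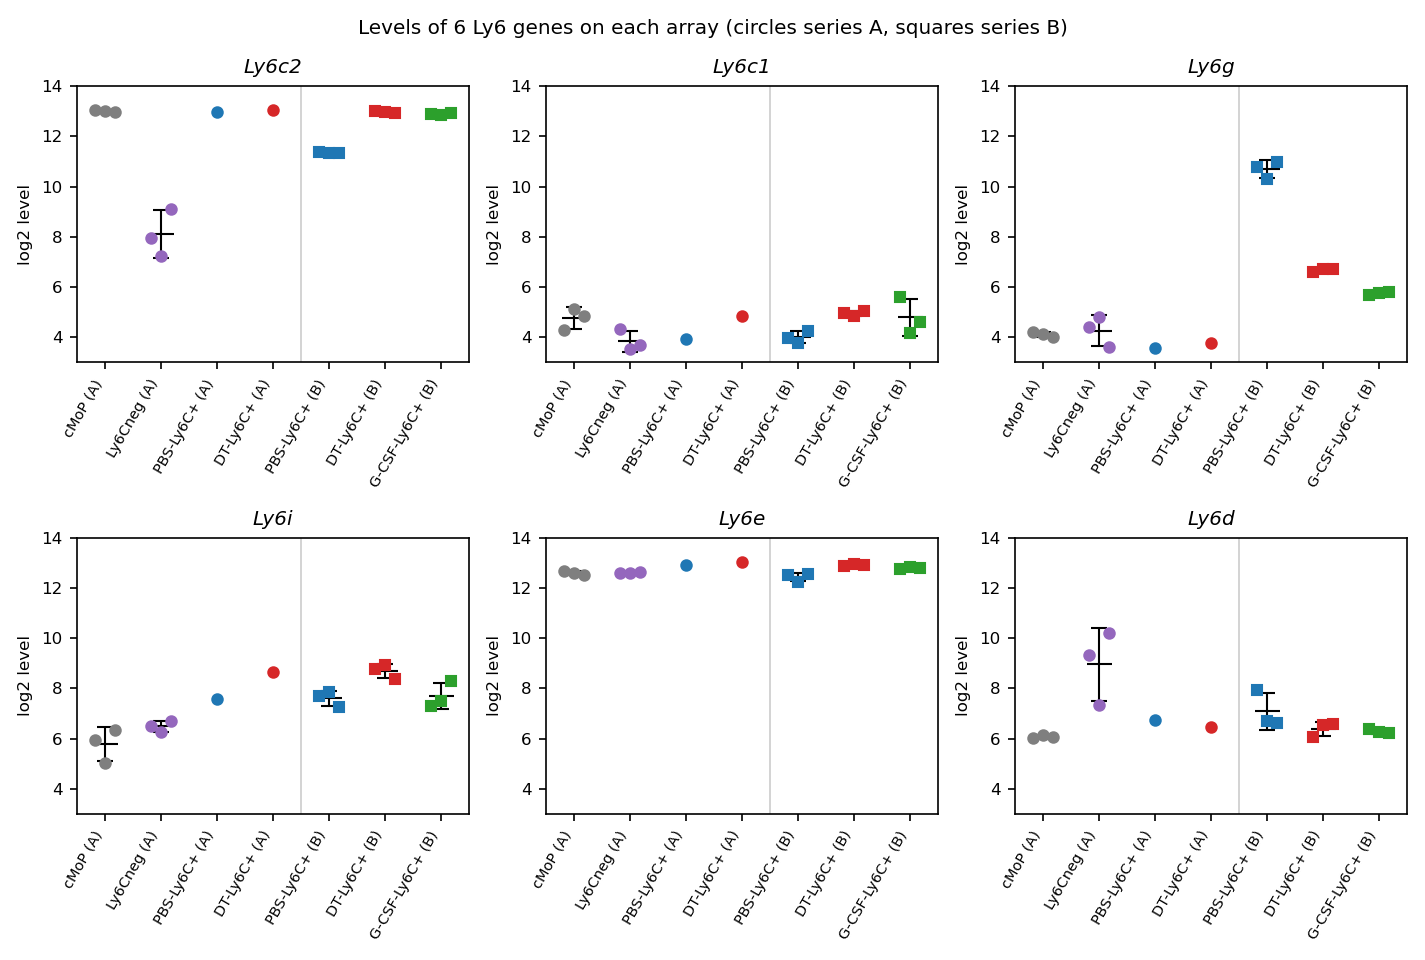
Log2 level of the 6 measured Ly6 genes on each of the 17 arrays, by group and array series (circles series A, squares series B), with the mean and SD of each group of 3 arrays as a bar. Ly6c2 is low only in Ly6Cneg monocytes, and Ly6g reaches 10.32 to 10.99 on PBS B1 to B3 and 3.56 on PBS A1.

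DT-Ly6C+ were compared with PBS-Ly6C+ monocytes to find what changes in Ly6C+ monocytes when CD11c+ cells are depleted. In series B, 4 of the 6 measured members rose, 1 fell and 1 was not called, at an adjusted p under 0.05 (limma, Benjamini-Hochberg over all genes), where 9.46% of all genes rose and 10.0% fell. Ly6c2 rose by 1.62 on the log2 scale (SE 0.30, 3.08-fold, adjusted p = 0.000737). Ly6i rose by 1.09 (SE 0.30, 2.14-fold, adjusted p = 0.0164) and Ly6c1, at its dim level, by 0.94 (SE 0.31, 1.91-fold, adjusted p = 0.0410). Ly6e rose by 0.49 (SE 0.12, 1.41-fold, adjusted p = 0.00561). Ly6g fell 16.3-fold, a log2 difference of -4.03 (SE 0.23, adjusted p = 4.8e-09). Ly6d, at -0.70 (95% interval -1.76 to 0.37, adjusted p = 0.414), did not pass, and was at -0.27 without PBS B1. Leaving out DT B1 or DT B2 ended the calls of both Ly6c1 and Ly6i and left 3 members called. The call of Ly6c1 was also lost without DT B3, PBS B1, PBS B2 or cMoP A3 (adjusted p up to 0.139), and that of Ly6i without PBS B3 (adjusted p = 0.0785).

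Within series A, DT A1 and PBS A1 differed in none of the 6 members, 0 of them also at an unadjusted p under 0.05, and only 5 of 22180 genes were called by limma, against 1777 at an unadjusted p under 0.05. With 1 array on each side the spread is assumed to be that of the other groups. The differences in series A were 0.08 for Ly6c2, 0.11 for Ly6e, 0.93 for Ly6c1, 1.05 for Ly6i and 0.21 for Ly6g. Those of Ly6c1 and Ly6i were close in size to series B, those of Ly6c2 and Ly6e were smaller, and Ly6g, below the array median on both arrays (3.78 and 3.56), has no direction to read there. The difference between the series was itself called for Ly6g, at -4.24 (SE 0.47, adjusted p = 3.8e-05, with 8.3% of all genes called), in which the series A side rests on those low levels, and not for Ly6c2, at 1.54 (SE 0.59, adjusted p = 0.139), Ly6e, at 0.38 (SE 0.23, adjusted p = 0.407), or the other 3 members.

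The markers that set PBS B1 to B3 apart moved in this comparison too. Of 12 neutrophil markers 8 fell and 0 rose, led by Mmp9 (-3.65), of 12 stem and progenitor markers 11 fell and 0 rose, led by Ctsg (-5.85), Mpo (-5.66) and Kit (-5.34), and of 10 measured T and NK cell markers 5 fell and 0 rose. Of 9 measured monocyte markers 7 rose and 0 fell, among them Cx3cr1 (3.43). In this comparison 9.46% of all genes rose and 10.0% fell. The part of these cells in the differences of Ly6g and Ly6c2 was not tested. Between DT A1 and PBS A1 the median differences of these lists, in the order given, were 0.28, -0.08, -0.20 and -0.003. The median of all genes was -0.01.

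G-CSF-Ly6C+ monocytes were compared with the same PBS B1 to B3 arrays, so the differences are not independent of those for DT. Here 2 of the 6 members rose, 1 fell and 3 were not called, where 9.13% of all genes rose and 9.8% fell. Ly6c2 rose by 1.53 (SE 0.30, 2.90-fold, adjusted p = 0.00129, limma). Ly6e rose by 0.36 (SE 0.12, 1.28-fold, adjusted p = 0.0388), a call that was lost with each G-CSF array left out in turn, without PBS B2 and without cMoP A2. Ly6g fell 30.8-fold, a log2 difference of -4.95 (SE 0.23, adjusted p = 7.3e-10). Ly6c1, at 0.78 (SE 0.31, adjusted p = 0.0905), passed only without G-CSF B2, at 1.09 (adjusted p = 0.0228), and was at 0.38 (adjusted p = 0.362) without G-CSF B1. Ly6i, at 0.10 (95% interval -0.55 to 0.74), and Ly6d, at -0.81 (95% interval -1.87 to 0.25), were not called, and Ly6d was at -0.38 without PBS B1. The same marker lists moved here, with 9 of 12 neutrophil markers and 11 of 12 stem and progenitor markers lower and none higher.

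Between G-CSF-Ly6C+ and DT-Ly6C+ monocytes of series B, 0 of the 6 members were called by limma, with 2 at an unadjusted p under 0.05. Few genes of any kind differed, 0.0361% higher and 0.0271% lower in G-CSF. The members below 0.05 were Ly6i, with a log2 difference of -0.998 (95% interval -1.64 to -0.35, adjusted p = 0.39), and Ly6g, with -0.92 (95% interval -1.41 to -0.42, adjusted p = 0.272). The arrays of the groups overlapped for neither gene. They did not overlap either for Ly6c2 (12.85 to 12.91 in G-CSF, 12.93 to 13.01 in DT) or for Ly6e (12.75 to 12.82, 12.88 to 12.95). The share of all genes without overlap was not counted. For Ly6c2 the difference was -0.09 with a 95% interval of -0.72 to 0.54, and for Ly6e -0.13 with an interval of -0.38 to 0.12. Ly6c1 and Ly6d had wider intervals, -0.80 to 0.50 and -1.18 to 0.95, the widest of the 6 being that of Ly6d.

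Ly6Cneg monocytes were set against cMoPs, the ends of the monocyte lineage sampled here. Of the 6 members 1 rose, 2 fell and 3 were not called, where 13.5% of all genes rose and 19.4% fell. Ly6c2 was 29.7-fold lower in Ly6Cneg monocytes (log2 difference -4.89, SE 0.30, adjusted p = 2.9e-09, limma), as the sort on Ly6C selects. Ly6c1 was lower by a log2 difference of -0.93 (SE 0.31, adjusted p = 0.0283), a call that was lost without cMoP A2 or A3 and without Ly6Cneg Anew or Apool. The arrays of the groups overlapped for Ly6c1. Ly6d rose 7.34-fold, by 2.88 (SE 0.50, adjusted p = 0.00026). With it rose 7 of 11 measured B and plasma cell markers and none fell, with Jchain, of secreted immunoglobulin, at 6.63, Cd22 at 3.63 and Cd79a, of the B-cell receptor, at 3.28, and their part in the result was not tested. Without the Ly6Cneg arrays in turn, the difference of Ly6d ran from 2.25 to 3.68. Ly6i, at 0.72 (SE 0.30, adjusted p = 0.0832), passed only without cMoP A3, at 0.999 (adjusted p = 0.0249), and was at 0.35 (adjusted p = 0.400) without cMoP A2. Ly6e, at -0.01 (95% interval -0.25 to 0.24), and Ly6g, at 0.14 (95% interval -0.36 to 0.64), were not called.

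The 1 DT array of series A was compared with both of these groups, its spread being assumed to be that of the other groups. Against Ly6Cneg monocytes 2 of the 6 members rose, 1 fell and 3 were not called, where 5.83% of all genes rose and 2.07% fell. Ly6c2 was 30.4-fold higher on DT A1 (log2 difference 4.93, SE 0.42, adjusted p = 2.77e-06, limma) and Ly6i 4.41-fold higher (2.14, SE 0.43, adjusted p = 0.00508). Ly6d fell by 2.49 (SE 0.71), at an adjusted p of 0.0415 that rose above 0.05 on leaving out any of 11 arrays, with values up to 0.0812. B and plasma cell markers fell with it, 4 of 11 measured and none rising, led by Jchain (-6.64), Cd79a (-3.27) and Ms4a1 (-3.21), and their part was not tested. Fitted on the arrays compared alone, none of the 3 calls against Ly6Cneg monocytes was kept, with an adjusted p of 0.168 for Ly6c2 and 0.1001 for Ly6i. Against cMoPs only Ly6i was called, 7.25-fold higher on DT A1 (2.86, SE 0.43, adjusted p = 0.00013), a call kept on the arrays compared alone, and 5 members were not called, where 8.07% of all genes rose and 9.04% fell. For Ly6c2 this difference was 0.03 with a 95% interval of -0.85 to 0.92.

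**Figure D3:**
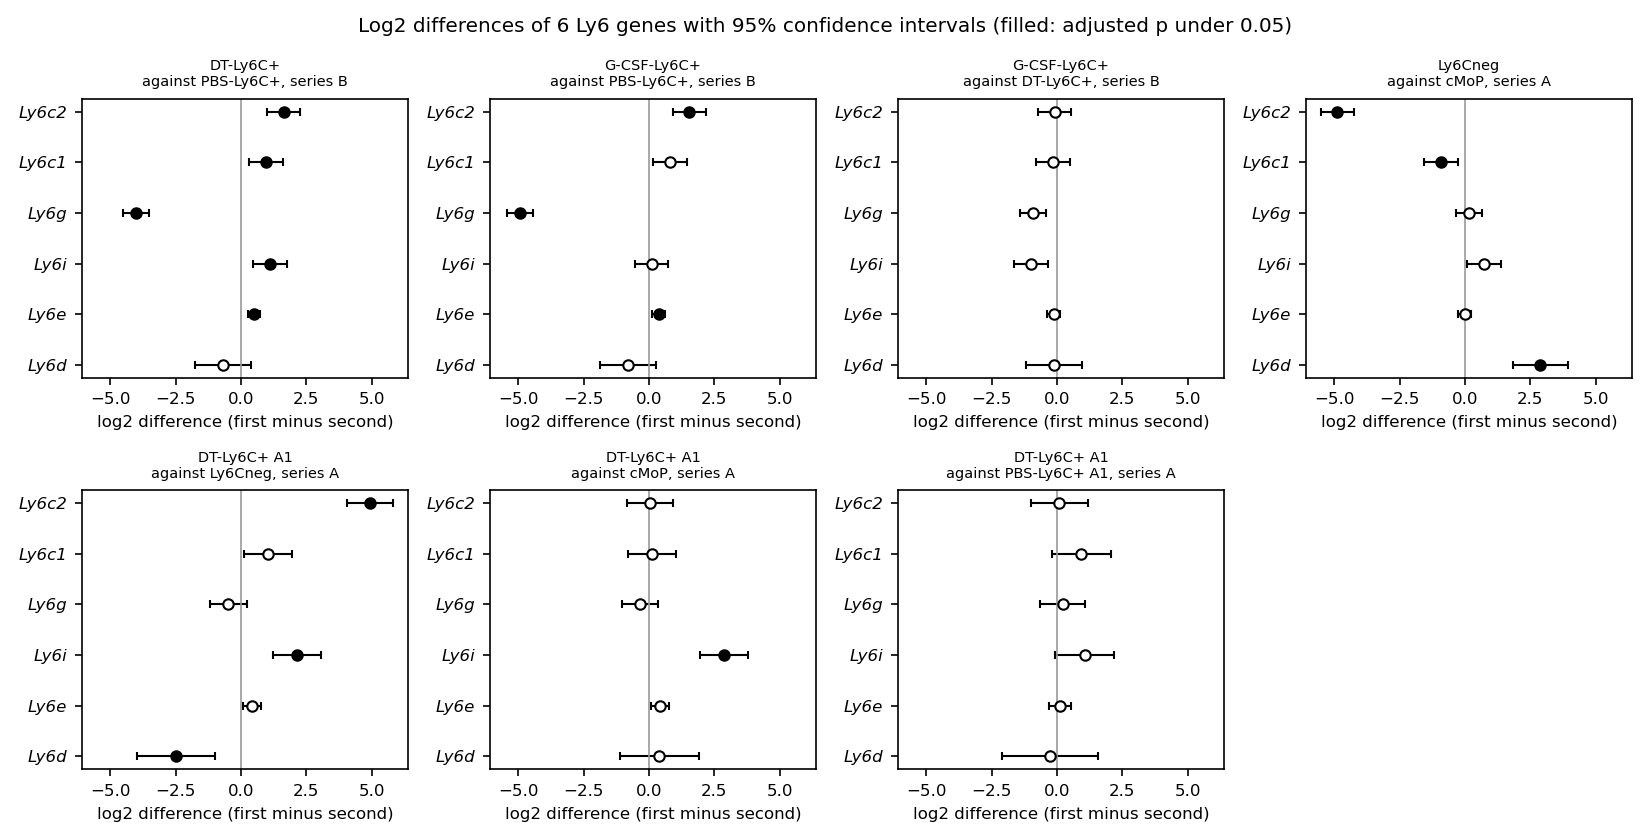
Log2 difference of each measured Ly6 gene in 7 comparisons within an array series, first group minus second, with 95% confidence intervals from limma (filled points have an adjusted p under 0.05). Ly6g has the largest difference in series B, -4.03 for DT and -4.95 for G-CSF against PBS, and 0.21 between DT A1 and PBS A1.

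Along the gene cluster, called differences between DT and PBS arrays of series B lay side by side in opposite directions. Of 17 other measured genes of the cluster between Psca and Gpihbp1, 3 rose and 1 fell between DT and PBS arrays of series B, where 9.46% of all genes rose and 10.0% fell, and their median difference was 0.09. Lynx1, Ly6g6g and Ly6a2 rose and Them6 fell. Between DT A1 and PBS A1 the differences were 0.50 for Lynx1, -0.02 for Ly6g6g, 0.17 for Ly6a2 and 0.28 for Them6. For Ly6g, below the array median on both, it was 0.21. The part of the cells whose markers set PBS B1 to B3 apart was not tested. Ly6a2, next to Ly6c2, was at 11.78, 11.56 and 11.35 in cMoPs, at 9.87, 9.81 and 9.56 on PBS B1 to B3, at 12.14 on PBS A1, at 11.95 to 12.31 on the DT arrays, and at 9.32, 6.58 and 7.54 in Ly6Cneg monocytes. It rose by 2.25 (SE 0.43, adjusted p = 0.00111, limma) in DT against PBS and by 2.37 (SE 0.43, adjusted p = 0.000764) in G-CSF against PBS, and fell by 3.75 in Ly6Cneg monocytes against cMoPs. Across the 17 arrays it correlated with Ly6c2 at Pearson's r = 0.93, and at 0.99 over the 9 arrays of series B. Ly6g, the next gene in the order, fell in DT and in G-CSF against PBS of series B. Its neighbours Ly6g2 (3.36 to 4.48) and Ly6f (3.25 to 4.48) were not called. Both lay below the lowest array median of 5.31, so a change could hardly be read. On DT A1 against Ly6Cneg monocytes, Ly6a2 was higher by 4.50 while Ly6g differed by -0.49.

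**Figure D4:**
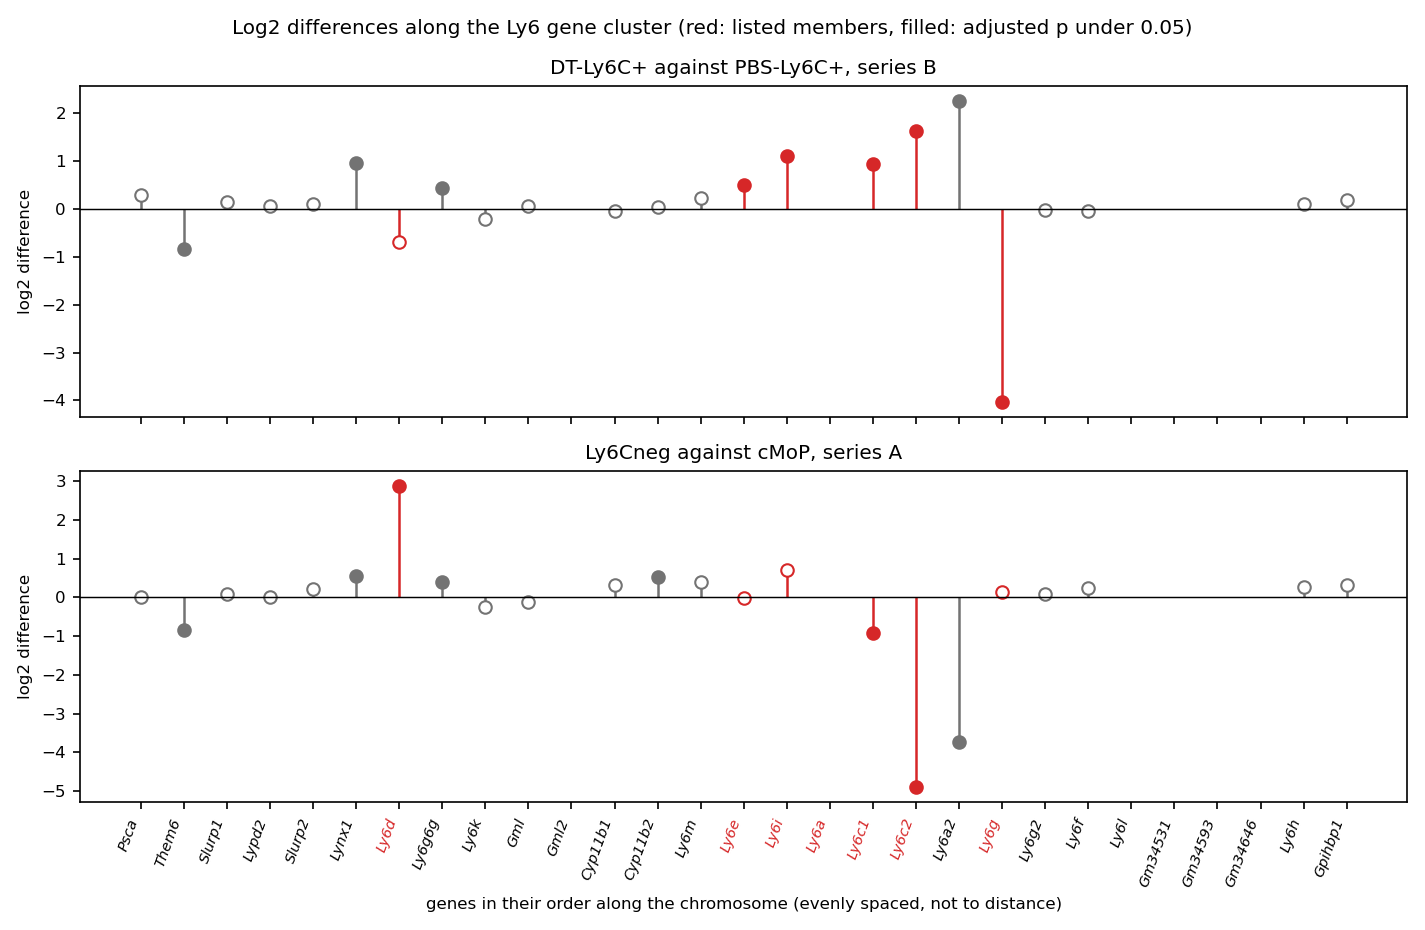
Log2 difference of each measured gene of the Ly6 cluster, in gene order and evenly spaced, for DT against PBS in series B and for Ly6Cneg monocytes against cMoPs (listed members in red, filled points at an adjusted p under 0.05, no point where a gene was not measured). Ly6c1, Ly6c2 and Ly6a2 are above 0 in the first comparison and below 0 in the second, and Ly6g is at -4.03 and 0.14.

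Of the wider Ly6/uPAR superfamily 40 of 46 listed genes were measured. Between DT and PBS arrays of series B, 4 rose and 2 fell, where 9.46% and 10.0% of all genes did, with a median difference of 0.10 against 0.02 for all genes. Plaur, the urokinase receptor, rose by 1.39, Lynx1, a modulator of nicotinic receptors, by 0.95, and Bambi, a pseudoreceptor for TGF-beta, by 0.92. Cd59a, an inhibitor of complement lysis (-1.003), and 9030619P08Rik (-2.13) fell. Between DT A1 and PBS A1 the differences were -0.17 for Plaur, 0.50 for Lynx1, -0.03 for Bambi, -0.18 for Cd59a and -0.07 for 9030619P08Rik, none of them called. In G-CSF against PBS 3 rose and 3 fell, where 9.13% and 9.8% of all genes did, with Plaur at 1.09 and Cd177, a GPI-anchored protein of neutrophils, at -0.62. Between Ly6Cneg monocytes and cMoPs 4 rose, led by Plaur at 2.15, and 1 fell, where 13.5% and 19.4% of all genes did. On DT A1, Cd177 was higher by 3.95 than in Ly6Cneg monocytes and by 3.48 than in cMoPs. In the same order Plaur was higher by 1.14 and 3.29 and Lynx1 by 0.47 and 1.01. The medians of the 40 genes were -0.06 and 0.16, against 0.003 and 0.05 for all genes. The medians of the 12 neutrophil markers in the same comparisons were 1.14 against Ly6Cneg monocytes (Mmp8 4.93, Camp 2.71) and 0.83 against cMoPs (Camp 4.53, Mmp8 3.68). Between G-CSF and DT none of the 40 was called, with a median of 0.02.

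The genes that build and attach the GPI anchor were listed because most members depend on it. Of 26 measured of 30, 10 fell and 2 rose in Ly6Cneg monocytes against cMoPs, where 19.4% and 13.5% of all genes did, with a median of -0.34 against 0.07 for all genes. The falls were led by Pign (-1.21), Pigu (-1.19), of the transamidase that attaches the anchor, and Pigq (-1.06), of the first step. The rises were Pgap1 (2.55), larger in size than any fall, and Pigz (0.59). Between DT and PBS arrays of series B 1 rose and 3 fell, where 9.46% and 10.0% of all genes did. Pgap1, which trims the anchor after attachment, rose by 2.93, and by 2.53 in G-CSF against PBS, and Piga, the catalytic subunit of the first step, fell by 0.82 and by 1.04. Between DT A1 and PBS A1 the difference was 0.34 for Pgap1 and -0.19 for Piga, neither called. Of 22 measured of 24 other GPI-anchored proteins of blood cells, 5 rose and 8 fell in DT against PBS, against the same shares of all genes. Treml4 rose by 1.39 and Bst2, a virus-tethering protein, by 1.30, while Ceacam10 (-3.67), Mmp25, a protease of neutrophils (-2.70), and Thy1, of T cells and progenitors (-2.64), fell. The neutrophil, T and NK cell, and stem and progenitor lists were high on the same PBS B1 to B3 arrays, and their part was not tested. Between DT A1 and PBS A1 the differences were 0.19 for Treml4, 0.72 for Bst2, 0.44 for Ceacam10, -0.07 for Mmp25 and -0.49 for Thy1, none of them called.

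Interferon signalling and response genes were listed because Ly6e and Ly6a are induced by interferon. In DT against PBS of series B, 15 of 24 measured genes (28 listed) rose and 0 fell, where 9.46% of all genes rose, with a median of 0.63. Mx1 rose by 2.61, Irf7 by 1.99 and Usp18 by 1.85, against 0.49 for Ly6e. In G-CSF against PBS 11 rose and 0 fell, where 9.13% of all genes rose. Between DT A1 and PBS A1, a comparison with 5 of 22180 genes called, none of the 24 was called, with a median of 0.01 and Mx1 at -0.88, Irf7 at 0.28 and Usp18 at 0.04. In Ly6Cneg monocytes against cMoPs 18 rose and 1 fell, where 13.5% and 19.4% of all genes did, with a median of 1.03, in a comparison in which Ly6e differed by -0.01. On DT A1 against cMoPs 17 rose and 0 fell, where 8.07% of all genes rose. Ly6e was at 0.41 (SE 0.16, adjusted p = 0.106, limma) there, and passed with a series term (adjusted p = 0.00976), with the series as a random block (0.0269) and with a trended robust prior (0.00652).

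The genes whose levels followed each member most closely were found by Pearson's r over the 17 arrays. The arrays share groups and series, so r describes these arrays only and has no test. Ly6c2 was followed by Plac8 (r = 0.99), Slc36a1 (0.96) and F13a1 (0.96), the A chain of coagulation factor XIII, and Ly6g by Il1f9 (0.98), Dhrs9 (0.98) and Mmp9 (0.97). Over series B alone r was 0.95 to 0.99 for the genes of Ly6c2 and 0.992 to 0.997 for those of Ly6g. Ly6d was followed by Blnk (0.97), an immunoglobulin kappa variable gene (0.96) and Cd79a (0.96), all genes of B cells, with r of 0.66 to 0.91 over series B. Ly6i was followed by Rgs14 (0.94), Cd300lb (0.94) and Vnn3 (0.93), Ly6e by Emp3 (0.92), Glud1 (0.92) and BC051226 (0.91), and Ly6c1 by Wdsub1 (0.88), Ddx59 (0.87) and Agfg2 (0.85). Among the members, Ly6c2 and Ly6g had r = 0.01 over all arrays and -0.97 over the 9 of series B.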

How the data were processed

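The deposited log2 values came from RMA, run by the authors in the oligo package (background correction, quantile normalization and a summary per probe set), whose version and genome build are not given in the sources used here. They were used as deposited, for 41345 probe sets on 17 arrays, with array medians of 5.31 to 5.53. Of 25341 annotated probe sets, 23521 with 1 symbol were kept, and the brightest for each of 22180 genes. No background values were used, and the number of arrays sets the precision.

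limma 3.58.1 (R 4.3.3) was run on the 17 arrays together, each combination of group and array series having its own mean (10 residual degrees of freedom). Benjamini-Hochberg adjustment covered the 22180 genes, comparison by comparison, and calls were made at 0.05. Nothing in the labels ties arrays to separate mice, so p measures only the spread between arrays. Promoters were aligned with Biopython 1.88.

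Members, lists and the tests were chosen with earlier results of these data known. Named were all members, per list at most the 3 largest called rises and falls, the 3 genes most like each member, and the genes that check the sort. Ly6a2 was added after its values were seen. Same-numbered arrays of series B did not deviate together (r of 0.0001 to 0.0895 in 9 pairs), so the main model has no block. Alternatives were a series term or random block or none, only the arrays compared, a filter on dim genes, the mean of probe sets, quantile normalization, a trended robust prior, a replicate block, a threshold of 0.01 and leaving out each array. Series A alone and the interaction were added after seeing the data.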

Additional observations from a re-analysis of the deposited data

Results flagged for a closer look

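In PBS-Ly6C+ monocytes, Ly6c2 at 12.95 on PBS A1 stood apart from the other 3 arrays, which lay at 11.33 to 11.38. Ly6g at 3.56 on PBS A1 stood apart from 10.32 to 10.99 on the others. In DT-Ly6C+ monocytes, Ly6g at 3.78 on DT A1 stood apart from 6.60 to 6.71. Ly6d at 7.94 on PBS B1 stood apart from 6.63 to 6.75. In each case the gap to the nearest array, over the range of the 4 arrays, passed Dixon's 95% critical value, which chance passes in about 1 group in 20. The difference of Ly6g between DT and PBS arrays in series B minus that in series A was -4.24, by the interaction in limma (adjusted p = 3.8e-05), with Ly6g below the array median on both arrays of series A.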

How the results depend on the processing

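In DT against PBS of series B, 5 members were called, and 3 at a threshold of 0.01, 3 with no series term and 0 with series A alone, where Ly6g was at 0.21. In G-CSF against PBS 3 were called, and 0 with no series term. Fits with a series term, a random block or no series term gave each group 1 mean over both series. In them PBS A1 was pooled with PBS B1 to B3, and DT A1 with DT B1 to B3. Against Ly6Cneg monocytes, DT A1 kept none of its calls with only the arrays compared. The random block set all 4 DT arrays against Ly6Cneg monocytes and called 5 members. Against cMoPs, a trended robust prior added the call of Ly6e for DT A1. A series term or random block set all 4 DT arrays against cMoPs and called 2 members, Ly6e being the added call. Leaving out each array in turn gave 3 to 5 members for DT against PBS, 2 to 3 for G-CSF against PBS, 0 for G-CSF against DT, 2 to 3 for Ly6Cneg against cMoPs, 2 to 3 for DT A1 against Ly6Cneg and 1 for DT A1 against cMoPs. With the replicate block the counts were 5, 2 and 0 in the 3 comparisons of series B, the lost call being Ly6e in G-CSF against PBS (adjusted p = 0.0503). That call was also lost with a series term (0.107), a random block (0.201), only the arrays compared (0.127), quantile normalization (0.0814) and no series term (0.338, all adjusted p). The cause of these changes was not tested. Ly6c2, called in 4 comparisons, lost its call with no series term in G-CSF against PBS (1.13, adjusted p = 0.0836), with series A alone in DT against PBS (0.08) and with only the arrays compared in DT A1 against Ly6Cneg. With no series term Ly6g lost both of its calls, at -2.97 in DT (adjusted p = 0.141) and -3.16 in G-CSF (adjusted p = 0.161) against PBS. Ly6c1, the dimmest member, was removed by the filter on dim genes, which left 15526. No background was used, so a low level cannot be told from none.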
